A study of Mus musculus with 8 samples.

Results

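The genes described here encode the nuclear pore and the receptors that carry cargo through it. They were chosen by gene name: every row of the authors' expression table whose symbol starts with Nup and a digit, Kpna, Kpnb, Ipo and a digit, or Xpo, together with Tpr, Ndc1, Pom121, Rae1, Seh1l, Aaas, Tnpo1, Tnpo2, Tnpo3, Cse1l and Ran. The measured value that the rule used is presence in that table, and the set was proposed with earlier results of these data known, so its counts are a description. The rule found 51 genes of the 16279 in the table: 27 pore genes, 23 transport receptor genes (16 for import and 7 for export) and Ran.

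The nuclear pore complex is a channel through the nuclear envelope built from stacked rings of scaffold proteins. Unfolded proteins rich in phenylalanine-glycine repeats fill the channel, and filaments reach out on the cytoplasmic side and form a basket on the nuclear side. Importins and exportins bind cargo by its localization signal and pass through the repeats, and the small GTPase Ran sets the direction, since its GTP-bound form, made in the nucleus, releases import cargo and is needed to hold export cargo. Ribosomal proteins are imported and ribosomal subunits are exported along this route.

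The study measured RNA in N2a cells, a mouse neuroblastoma line, 48 h after transfection with siRNA, a short duplex that triggers mRNA degradation, directed at Emg1 or a control. EMG1 is a methyltransferase of 18S ribosomal RNA, and the study asks how it affects N6-methyladenosine (m6A), a methyl mark on adenosines in mRNA. There were 4 groups of 2 libraries: Emg1 knockdown input, control input, Emg1 knockdown m6A immunoprecipitation (IP) and control m6A IP, all from poly(A) RNA. Both conditions received siRNA, so untransfected cells are not part of the comparison. Whether the 2 libraries in each group stem from independent cultures is not stated, and p-values then measure only the spread between these libraries, which may be technical.

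Neither deposited table gives a value per library. The values below are therefore the authors' log2 fold change between conditions with its standard error (SE), and their p-value adjusted over all genes, with 0.05 as the threshold for saying that a gene rose or fell. The sign is read as knockdown over control because the authors' deposited table has Emg1 at -1.73 ± 0.11, or 30.2% of control. The 10 neuroblastoma markers looked up were all in the table, with mean normalized counts from 42.6 for Dbh to 21840 for Tubb3. Hand2 was at 10441, while Th and Gata3 were low at 107 and 291. Of the markers of other cell types, 2 of 5 for fibroblasts, 2 of 4 for leukocytes, 2 of 4 for endothelium and epithelium and 3 of 4 for glia had a row, with summed means of 133, 19.4, 416 and 702 (688 of it from Mbp) against 63536 for the neuroblastoma markers. Ptprc, Epcam, Lum and Olig2 had no row. The endothelial marker Pecam1 had a mean of 407, above those of Dbh, Th and Gata3.

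Input RNA of most pore and receptor genes was slightly above control after knockdown, and the genes that passed mostly rose. Of the 50 members with an adjusted p, 25 rose, 3 fell and 22 did not pass. Over the whole table, 17.1% of the 12807 genes tested rose and 15.5% fell. Most members are abundant: 49 had a mean normalized count, which is not corrected for gene length, of 1000 or more. Genes at that level, called abundant genes here, number 6536, and 26.1% of them rose and 19.3% fell. The fold change was above 0 for 41 of the 51 members (80.4%) and for 55.0% of abundant genes. The median log2 fold change was 0.16 over the members and 0.03 over abundant genes. Sizes were small: the members lay between -0.43 and 0.74 on the log2 scale, with a median SE of 0.07. With an absolute change of at least 0.5 also required, 3 of the 50 rose and 0 fell by DESeq2. At that size 3.79% of all genes tested rose and 5.75% fell, and 3.75% of abundant genes rose and 3.72% fell, so at this size the count of members is near the background.

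**Figure D1:**
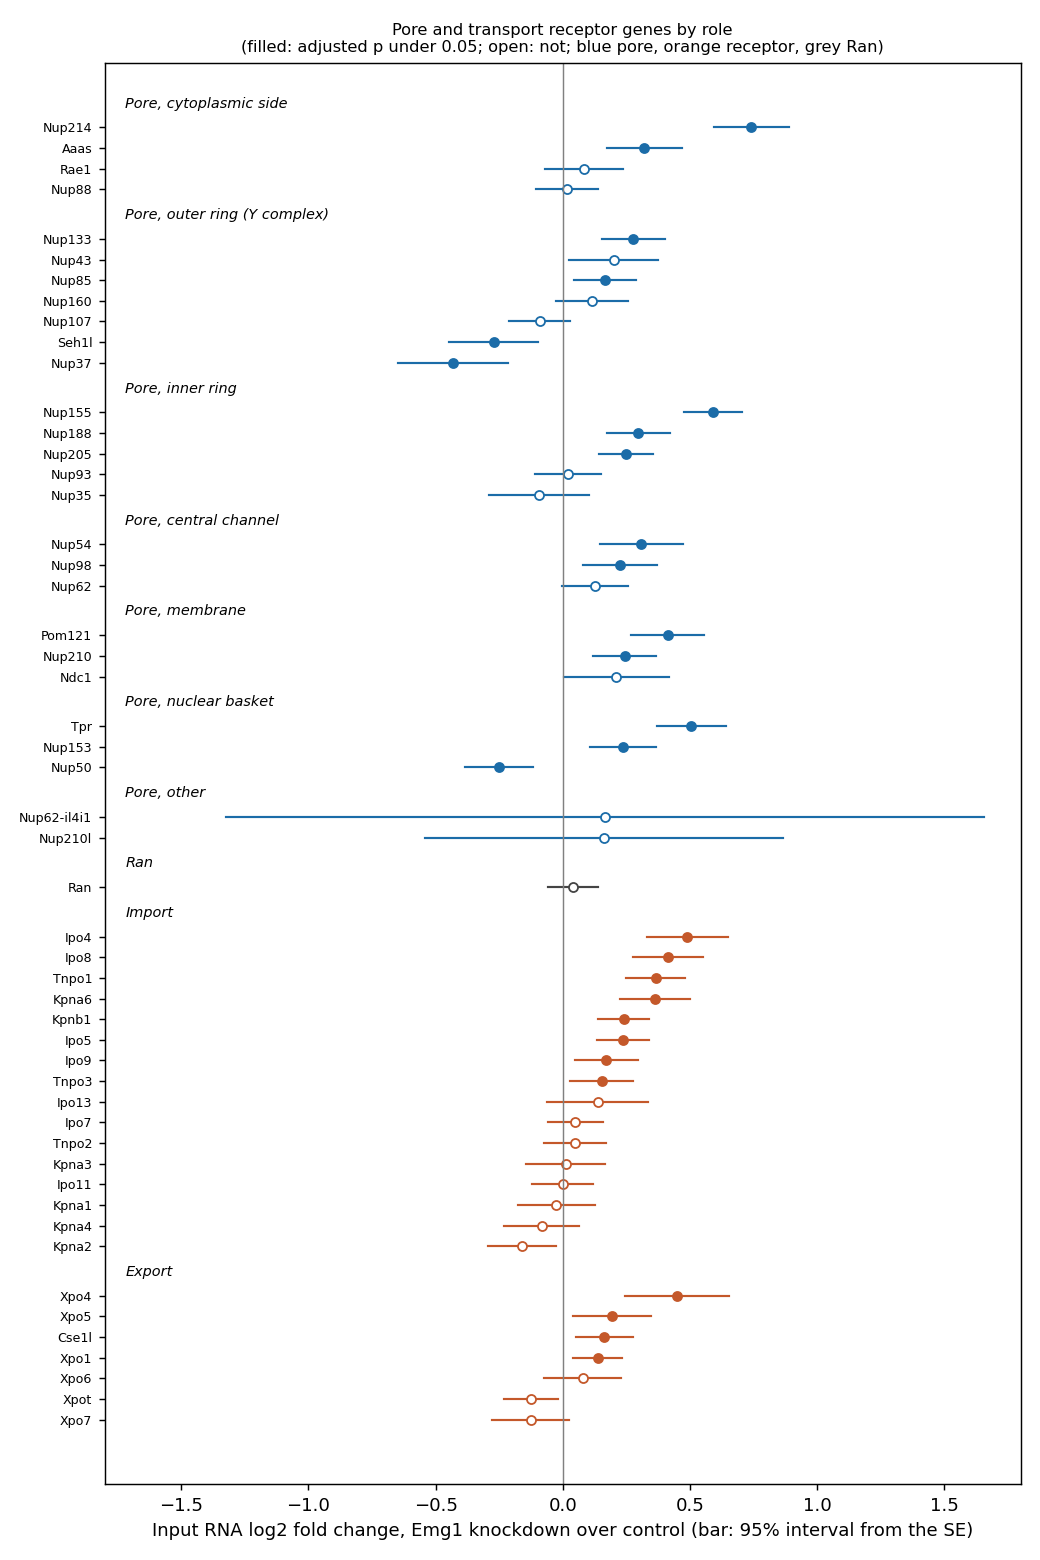
Input RNA log2 fold change (knockdown over control, horizontal axis) of the 51 members, grouped by role; points are the authors' fold changes, bars are 95% intervals computed from their SE, and filled points had an adjusted p under 0.05. Nup214 at 0.74 lies farthest right and Nup37 at -0.43 farthest left, and the filled points to the left of 0 are Nup37, Seh1l and Nup50.

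Of 26 pore genes with an adjusted p, 13 rose, 3 fell and 10 did not pass, and the median of all 27 was 0.20. The 3 members that fell were all pore genes.

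On the cytoplasmic side of the pore, 2 of 4 genes rose. Nup214, a repeat-bearing filament protein that binds export complexes, rose by 0.74 ± 0.08 (log2, SE; adjusted p = 1.24e-20) in the authors' deposited table. Expressed as a ratio this is 167% of control, with a 95% interval of 151 to 185. Its value was the highest among the members. Aaas, which encodes the WD-repeat protein aladin, rose by 0.32 ± 0.07 (adjusted p = 0.000142) in the authors' deposited table. Nup88, the binding partner of Nup214, was at 0.02 ± 0.06 with an interval of 92.9 to 110% of control. That interval lies wholly below that of Nup214, though how often this holds between any abundant genes was not computed. Rae1, an mRNA export factor that docks on Nup98, was at 0.08 ± 0.08 in the authors' deposited table.

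The outer ring, or Y complex, whose copies coat both faces of the pore, went both ways: of 7 genes 2 rose, 2 fell and 3 did not pass. With so few genes, these shares of 28.6% rising and 28.6% falling are near the 26.1% and 19.3% of abundant genes. Nup133 rose by 0.28 ± 0.06 (adjusted p = 8.22e-05) and Nup85 by 0.17 ± 0.06 (adjusted p = 0.0283) in the authors' deposited table. Nup37, a small peripheral propeller protein of the Y, fell by 0.43 ± 0.11 (adjusted p = 0.000587) in the authors' deposited table. It stood at 74.1% of control, with an interval of 63.8 to 86.0. Seh1l, another propeller protein, which also serves in a nutrient-sensing complex upstream of mTOR, fell by 0.27 ± 0.09 (adjusted p = 0.00942) in the authors' deposited table. The long stem and arm proteins Nup107 and Nup160 were at -0.09 ± 0.06 and 0.12 ± 0.07, and Nup43 was at 0.20 ± 0.09 in the authors' deposited table (adjusted p = 0.0687). Subunits of the same complex thus had 95% intervals on opposite sides of 0.

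In the inner ring, the scaffold that anchors the repeat proteins, 3 of 5 genes rose. Nup155, which links the ring to the membrane, rose by 0.59 ± 0.06 in the authors' deposited table. It stood at 151% of control (interval 139 to 163), and its adjusted p of 8.62e-22 was the smallest among the members. The large scaffold genes Nup188 and Nup205 rose by 0.30 ± 0.06 (adjusted p = 2.62e-05) and 0.25 ± 0.05 (adjusted p = 5.47e-05) in the authors' deposited table. Nup93, which binds both of them, was at 0.02 ± 0.07, with an interval of 92.6 to 111% of control. Nup35, a membrane-binding protein of the ring, was at -0.09 ± 0.10 in the authors' deposited table.

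The repeat proteins of the central channel were all above 0, and 2 of 3 rose. Nup54 rose by 0.31 ± 0.08 (adjusted p = 0.00141) and Nup98 by 0.22 ± 0.07 (adjusted p = 0.00978) in the authors' deposited table. Nup98 is made from a longer precursor that also yields the Y complex protein Nup96, and the table has 1 row for both. Nup62 was at 0.13 ± 0.07 in the authors' deposited table (adjusted p = 0.133). Its span is shared with the readthrough gene Nup62-il4i1, so reads in shared exons cannot be told apart; that row had a mean of 19.7, a value of 0.17 ± 0.76 and no adjusted p.

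Of the membrane-spanning genes 2 of 3 rose. Pom121 rose by 0.41 ± 0.07 (adjusted p = 2.69e-07) and Nup210 by 0.24 ± 0.06 (adjusted p = 0.000768) in the authors' deposited table. Ndc1, which ties the scaffold to the membrane, was at 0.21 ± 0.11 in the authors' deposited table (adjusted p = 0.115). Nup210l, a relative of Nup210 with little expression outside the testis, had a mean of 80.6 and a value of 0.16 ± 0.36.

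All 3 genes of the nuclear basket passed, 2 upward and 1 downward. Tpr, the long coiled-coil protein that forms the basket filaments, rose by 0.51 ± 0.07 (adjusted p = 1.43e-11) in the authors' deposited table. It reached 142% of control and had the highest mean count of the pore genes, 13473. Nup153, which anchors Tpr, rose by 0.24 ± 0.07 (adjusted p = 0.00216) in the authors' deposited table. Nup50, a mobile basket protein that helps importin alpha let go of its cargo, fell by 0.25 ± 0.07 (adjusted p = 0.00136) in the authors' deposited table. It stood at 84.0% of control, with an interval of 76.6 to 92.1. The interval of Nup50 does not overlap those of its basket partners, though how often this holds between any abundant genes was not computed.

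Among the transport receptors 12 of 23 rose, 0 fell and 11 did not pass, with a median log2 fold change of 0.14. At DESeq2's unadjusted p under 0.05, 2 receptors, Kpna2 and Xpot, were below control and the 12 that rose were above it. The share of all genes below control at that level was not computed.

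Of the 16 import genes 8 rose. Kpnb1, which encodes importin beta and had the highest mean count among the members at 29367, rose by 0.24 ± 0.05 (adjusted p = 2.6e-05) in the authors' deposited table. Ipo4 rose by 0.49 ± 0.08 (adjusted p = 2.61e-08) and Ipo8 by 0.41 ± 0.07 (adjusted p = 8.09e-08) in the authors' deposited table. Ipo4 carries histones and ribosomal proteins, and Ipo8 is a close relative of Ipo7. Ipo5, a carrier of ribosomal proteins and histones, rose by 0.24 ± 0.05 (adjusted p = 4.94e-05) and Ipo9, a histone carrier, by 0.17 ± 0.06 (adjusted p = 0.0244) in the authors' deposited table. Ipo7, another carrier of ribosomal proteins, was at 0.05 ± 0.06 with an interval of 96.0 to 112% of control. That is below the 121 to 147% of Ipo8, but the share of abundant gene pairs set apart like this was not computed. Ipo11 and Ipo13 were at 0.00 ± 0.06 and 0.14 ± 0.10 in the authors' deposited table.

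The transportins bind proline-tyrosine signals on RNA-binding proteins or, for Tnpo3, the arginine-serine domains of splicing factors. Tnpo1 rose by 0.37 ± 0.06 (adjusted p = 1.34e-08) in the authors' deposited table, while its paralog Tnpo2 was at 0.05 ± 0.06 (adjusted p = 0.601). The intervals of that pair, 119 to 140% and 95.1 to 112% of control, do not overlap. How often pairs of abundant genes differ in this way was not computed, so this is not shown to be particular to the pair. Tnpo3 at 0.15 ± 0.06 lay just inside the threshold (adjusted p = 0.0484) in the authors' deposited table, and its call ended when p-values were adjusted over all 16279 genes or when fold changes were centred.

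The importin alpha genes, whose proteins link classical localization signals to importin beta, had 1 of 5 rising. Kpna6 rose by 0.36 ± 0.07 (adjusted p = 3.82e-06) in the authors' deposited table. The remaining importin alpha genes did not pass: Kpna3 was at 0.01 ± 0.08, Kpna1 at -0.02 ± 0.08, Kpna4 at -0.08 ± 0.08 and Kpna2 at -0.16 ± 0.07 in the authors' deposited table. Kpna2 lay just outside the threshold (adjusted p = 0.06) and passed as falling when fold changes were centred. The 95% interval of Kpna6, 117 to 142% of control, lies above those of all of these. How often such a gap occurs among any abundant genes was not computed.

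Of the 7 export genes 4 rose. Xpo4, which exports the translation factor eIF5A, rose by 0.45 ± 0.10 (adjusted p = 0.000139) in the authors' deposited table. It reached 137% of control, with the lowest mean count of the receptors, 1323. Xpo1, the general exportin for leucine-rich signals and for ribosomal subunits, rose by 0.14 ± 0.05 (adjusted p = 0.021), and Cse1l, which returns importin alpha to the cytoplasm, by 0.16 ± 0.06 (adjusted p = 0.0158) in the authors' deposited table. Xpo5, the exporter of microRNA precursors, rose by 0.19 ± 0.08 (adjusted p = 0.0395), a call that ended when p-values were adjusted over all genes of the table. Xpot, the exporter of transfer RNA, was at -0.12 ± 0.05 (adjusted p = 0.0631) and passed as falling when fold changes were centred. Xpo7 and the actin exporter Xpo6 were at -0.13 ± 0.08 and 0.08 ± 0.08 in the authors' deposited table. Ran itself was at 0.04 ± 0.05, with an interval of 96.1 to 110% of control and a mean count of 24039. Ran has near-identical copies elsewhere in the genome, such as Rasl2-9, so its count is uncertain where reads could be split between them. The row of Rasl2-9 had a mean count of 50.8 and a value of -0.86 ± 0.46 (adjusted p = 0.14) in the authors' deposited table.

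Rising genes were 13 of 26 in the pore and 12 of 23 among receptors, and falling genes 3 and 0. The receptor median was 0.06 below the pore median on the log2 scale. The quartiles were 0.05 and 0.29 for pore genes and 0.01 and 0.24 for receptors. The end values lay farther apart among pore genes, from -0.43 for Nup37 to 0.74 for Nup214, than among receptors, from -0.16 for Kpna2 to 0.49 for Ipo4. Import and export genes had medians of 0.15 and 0.14. These are counts over genes, which are not replicates, and no test of the difference was made.

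**Figure D2:**
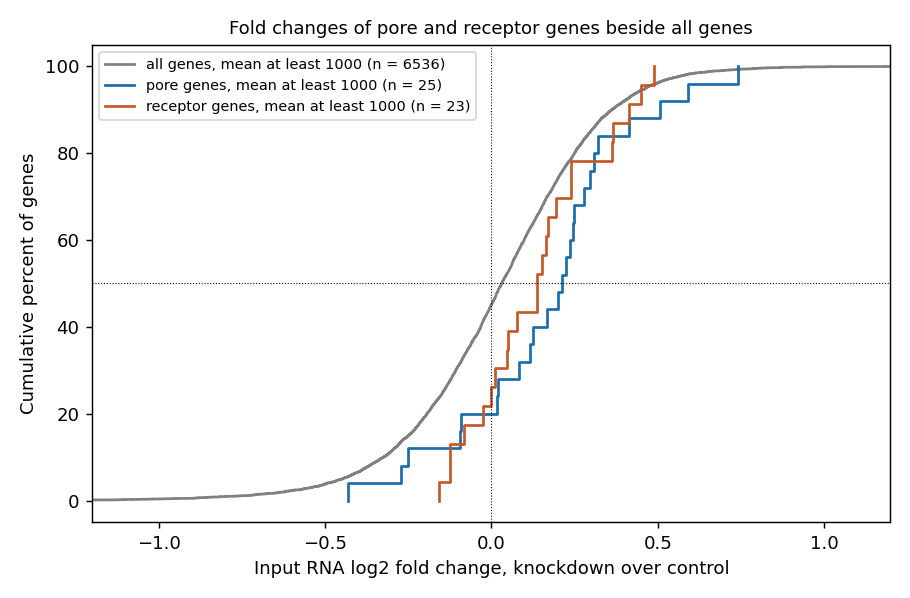
Cumulative percent of genes (vertical axis) against input log2 fold change (horizontal axis) for 25 pore genes, 23 receptor genes and all 6536 abundant genes. The pore and receptor curves run to the right of the grey curve through most of their range, crossing the 50% line at 0.21 and 0.14 against 0.03 for all genes.

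Fold changes were set beside gene length and count. Across the 50 members with a RefSeq span, Spearman's rho with the span was 0.14, and across 6271 abundant genes it was also 0.14. With the mean normalized count rho was 0.04 across the 51 members. The classes had opposite signs: pore genes had a rho of 0.25 with the span and 0.27 with the count, and receptors -0.09 and -0.07. Genes share libraries and are not independent, so these values are descriptions.

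Other genes of nuclear transport and the nuclear envelope were taken as 6 lists of 49 genes, all of them in the table, of which 18 rose, 6 fell and 25 did not pass (median 0.11). The rising genes are 36.7% of these lists and the falling genes 12.2%, beside 26.1% and 19.3% of abundant genes. Of the 7 other pore components 3 rose and 1 fell. Ranbp2, the giant cytoplasmic filament protein, rose by 0.28 ± 0.06 (adjusted p = 2.91e-05) in the authors' deposited table. In the Ran cycle list 3 of 7 rose and 0 fell by DESeq2, at the adjusted or an unadjusted p under 0.05. Among those that rose was Ranbp1, a cofactor of GTP hydrolysis on Ran, at 0.33 ± 0.07 in the authors' deposited table (adjusted p = 1.76e-05). Of 6 other karyopherins and adaptors 2 rose and 1 fell. The one that fell was Nutf2, which carries Ran back into the nucleus, at -1.16 ± 0.14 in the authors' deposited table (adjusted p = 3.71e-14).

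Of 20 mRNA export genes 6 rose (30.0%) and 1 fell, a share of rising genes near the 26.1% of abundant genes. The THO complex, which couples transcription to export, had genes that passed in both directions. Thoc5 rose by 0.47 ± 0.07 (adjusted p = 1.04e-09) and Thoc1 by 0.51 ± 0.10 (adjusted p = 2.97e-06) in the authors' deposited table. The gene that fell was Thoc6, named after its value was seen, at -0.36 ± 0.11 in the authors' deposited table (adjusted p = 0.00373). Of the 4 genes of pore-linked SUMO conjugation 1 rose and 2 fell. Of 5 lamina genes 3 rose and 1 fell. The 3 were the lamin genes, with Lmna at 0.71 ± 0.07 (adjusted p = 9.23e-23), Lmnb1 at 0.65 ± 0.07 (adjusted p = 5.99e-19) and Lmnb2 at 0.51 ± 0.08 in the authors' deposited table (adjusted p = 1.8e-08). These lists were fixed with earlier results of the data known.

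**Figure D3:**
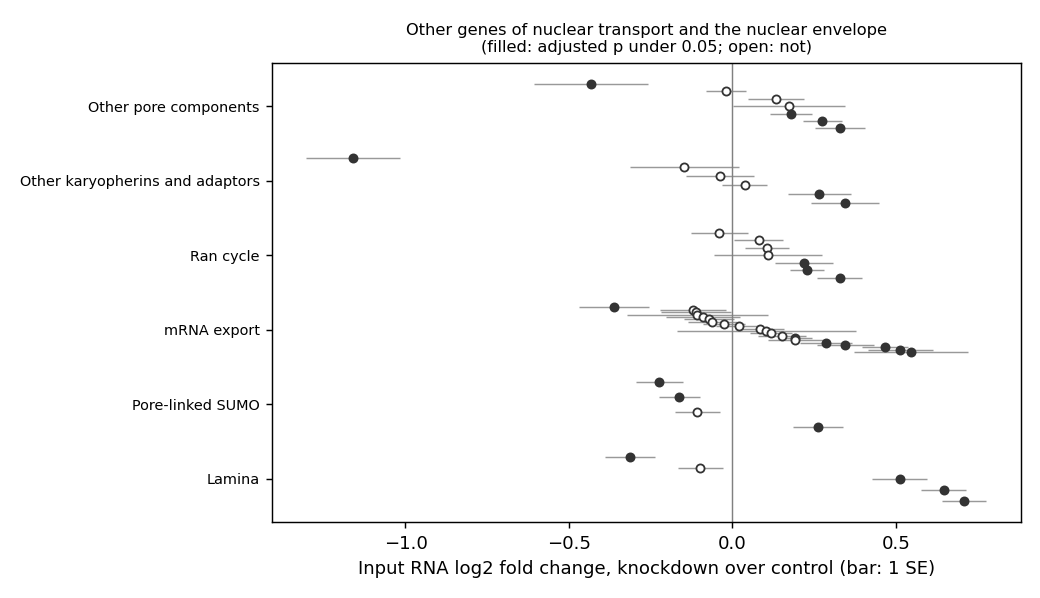
Input RNA log2 fold change (horizontal axis, bars are 1 SE) of the 49 further genes in 6 lists; filled points had an adjusted p under 0.05. The filled point at -1.16 is Nutf2, and the 3 filled points at the right of the lamina row are Lmnb2, Lmnb1 and Lmna at 0.51, 0.65 and 0.71.

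Differential m6A peaks were on 10 members, 5 pore genes and 5 receptor genes, with 1 peak each. That is 10 of 51, where 11.7% of all genes in the expression table and 22.8% of abundant genes had a differential peak. The peak table gives a fold enrichment of IP over input and a log2 change between conditions, leaves unstated which condition its change is relative to, and gives no error. The antibody does not separate m6A from the related cap-adjacent mark m6Am. Negative changes were found on 4 members and positive changes on 6. Among abundant genes 13.2% had a negative-change and 10.2% a positive-change peak. All peaks listed are differential, so a member without one may still carry m6A.

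The 4 negative-change peaks were each listed as more than 1 block, that is, as separate intervals with gaps between them. Kpna4 had the steepest change of the members at -1.73 (false discovery rate 1e-19, enrichment 3.44) in the authors' deposited table, at chr3:69101419-69127062 on the minus strand of mm10. Its main block of 331 bases began 30 bases after the annotated transcript start, and blocks of 45 and 12 bases lay further along. Xpo1 had a peak of -0.693 (false discovery rate 9.12e-05, enrichment 1.75) at chr11:23256041-23256436 on the plus strand in the authors' deposited table. Its first block of 122 bases began exactly at a RefSeq transcript start, 132 bases inside the gene's full span, with a second of 29 bases. The peak on Tpr, -0.729 (false discovery rate 3.09e-09, enrichment 1.75), lay at chr1:150407380-150409214 in 4 blocks, between 25.5% and 28.7% of the gene span, in the authors' deposited table. Enrichments of 1.75 are low beside the median of 5.525 over all 2114 differential peaks.

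The first bases of the peaks on Kpna4 and Xpo1 are shown because these peaks begin at or near a transcript start. The letters are from RefSeq (GRCm38.p6, the build of mm10) on the strand of the gene, read from the block's 5′ end, for chr3:69127043-69127062 and chr11:23256041-23256070.
Kpna4: cccctctcagccggcagcac
Xpo1: ggagaagcggctgcagcggccgcggcagga
Neither stretch holds GGAC, the core of the preferred m6A motif, which says nothing about the rest of the peaks.

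Nup62 carried the remaining negative-change peak, -0.637 with a false discovery rate of 2.51e-13 and an enrichment of 15.1, at chr7:44816420-44828959 on the plus strand in the authors' deposited table. Most of it, 473 bases, lay at 80.2% of the gene span, and 64 bases lay 332 bases after the gene start. The span of Il4i1b on the same strand covers both blocks and that of Atf5 on the other strand covers the first, so the gene that these reads come from is not certain.

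The 6 positive-change peaks had the middle of their longest block in the last 5% of the gene span, and 5 of them were a single block. The share of all positive-change peaks lying there was not computed, so this place is not shown to be particular to these genes. Nup214 had the largest positive change of the members at 1.38 (false discovery rate 6.31e-06, enrichment 11.1), over 360 bases at chr2:32052121-32052480, centred at 97.9% of the span, in the authors' deposited table. That change ranked at place 90 of 991 positive-change peaks. The peak on Ndc1, 0.705 with a false discovery rate of 1.48e-05 at chr4:107411210-107414338, was the most enriched of the members at 23.2. Nup98 had a peak of 1198 bases that ended at the gene's last base (chr7:102119400-102120597, minus strand) with a change of 0.403, a false discovery rate of 2.09e-05 and an enrichment of 10.9 in the authors' deposited table. The gene spans of Fam78a and Art1, both on the opposite strand, overlap the peaks on Nup214 and Nup98.

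The other three positive-change peaks were on importins. Ipo9 had a change of 0.769 (false discovery rate 0.000186, enrichment 7.48) at chr1:135382915-135383424, and Ipo4 one of 0.407 (false discovery rate 0.0158, enrichment 6.3) at chr14:55625629-55625927, in the authors' deposited table. The peak on Ipo8, 0.98 with a false discovery rate of 0.0055 at chr6:148772420-148772540, had an enrichment of only 1.45. Among all differential peaks 37.6% of negative-change and 65.3% of positive-change peaks had a single block, and the median enrichments were 4.11 and 8.61. The members' medians were 2.595 for the 4 negative-change and 9.19 for the 6 positive-change peaks.

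**Figure D4:**
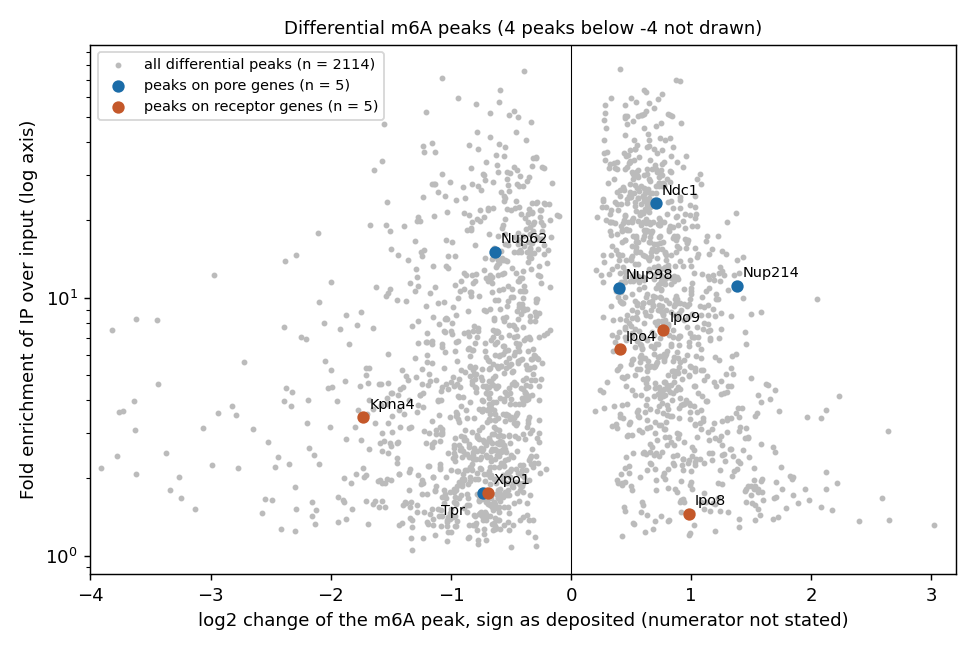
Fold enrichment of IP over input (vertical log axis) against the log2 change of each peak as deposited (horizontal axis) for 2114 differential peaks in grey, apart from the few most negative, which are not drawn, with the 5 peaks on pore genes in blue and the 5 on receptor genes in orange. Kpna4 at -1.73 and Nup214 at 1.38 lie farthest out, and Tpr, Xpo1 and Ipo8 lie below an enrichment of 2.

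**Figure D5:**
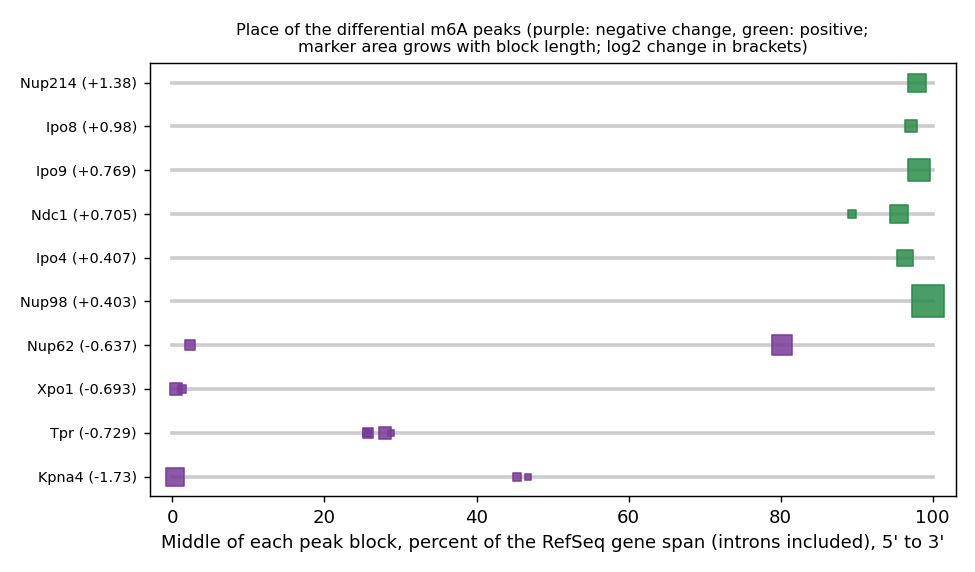
Middle of each peak block along the gene, in percent of its RefSeq span (horizontal axis) for the 10 members with a differential peak, ordered by change; marker area grows with block length. The longest blocks of the 6 positive-change peaks lie between 95.5% and 99.3% of the span, and those of Kpna4 and Xpo1 lie below 1%. Places over all differential peaks were not computed for comparison.

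Peak change and input change are given side by side, since the peak values may draw on the same input libraries. Of the genes with positive-change peaks, Nup214, Ipo4, Ipo8, Nup98 and Ipo9 rose in input and Ndc1 did not pass. Of those with negative-change peaks Tpr and Xpo1 rose, and Nup62 and Kpna4 did not pass. Among all members with an adjusted p, 25 of 50 rose. The share of rising genes among all genes with a peak of either sign was not computed. Whether peak change goes with input change was therefore not tested. Differential peaks were also found on some of the 49 further genes. Ranbp1 had a change of -1.45 in 3 blocks and Eny2, a subunit of a complex that links transcription to export, one of -0.825 in 5 blocks in the authors' deposited table. Those on Thoc7, Thoc5 and Phax were -1.02, -0.854 and -0.282, and Ranbp10 had a positive-change peak of 0.684 in the authors' deposited table.

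Promoter sequence was looked at because 25 members rose and 3 fell. RefSeq entries (GRCm38.p6) were matched for 39 of the 51 members, and the 250 bases before each transcript start were searched on both strands for 6 common motifs, whose matches may overlap each other. A member or abundant gene counted as holding a motif if any of its promoters did, whereas the share over all promoters is per promoter. GCGCA followed directly by TGCGC, the palindrome bound by NRF1, was found for 5 members (12.8%), against 2.39% of 5061 abundant genes and 0.782% of all 32851 promoters. The 7 matches are shown with 10 bases on each side, with the motif in capitals. The 5 genes were grouped by holding this match, and all 5 also held the GC box given below. They lie at chr10:117792751-117792780 (Nup107, minus strand), chr15:84923251-84923280 and chr15:84923313-84923342 (Nup50), chr7:44816058-44816087 (Nup62), chr5:129019941-129019970 (Ran), and chr17:46202716-46202745 and chr17:46202739-46202768 (Xpo5), all but Nup107 on the plus strand.
Nup107: gacgaaagtcGCGCATGCGCcgagcgggaa
Nup50, distal: gggcgggcttGCGCATGCGCcgcgcgaccc
Nup50, proximal: aggctccgacGCGCATGCGCagtagctgga
Nup62: ataagacaatGCGCATGCGCaacaggttgt
Ran: cccgcagccaGCGCATGCGCgtggcagccc
Xpo5, distal: acttccgcgcGCGCATGCGCcgtggcggct
Xpo5, proximal: ggcggctccgGCGCATGCGCagcgctgggt
Of these genes Xpo5 rose, Nup50 fell and the other three did not pass, so the match did not go with one direction of change. The ETS motif CCGGAAG was found for 7 members (17.9% against 18.5% of abundant genes). Of these Aaas, Ipo4, Nup155, Nup54 and Tnpo3 rose, Nup37 fell and Nup107 did not pass. Among all 39 members with a promoter entry, 21 rose and 2 fell. Whether a motif goes with the change was not tested. The E-box CACGTG was found for 17.9% against 10.8%, CCAAT for 46.2% against 40.4%, TATAAA for 10.3% against 6.64% and the GC box GGGCGG for 66.7% against 70.0%. A match describes the letters and is not evidence that a factor binds there.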

How the data were processed

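The build mm10 and the tools DESeq2, HISAT2 and Trimmomatic are named per the submitters' processing notes; their versions, the read counter, annotation and peak caller are not stated there. The authors deposited 1 expression table, with the mean normalized count (a signal averaged over the libraries of the fit), log2 fold change and SE (log2 values), Wald statistic (a score), p-value and adjusted p-value for 16279 genes. An adjusted p was given for 12807, and the 3472 without one had means up to 22.7. The authors also deposited 2114 differential m6A peaks, with fold enrichment (a ratio), log2 change, and log10 values of its p-value and false discovery rate (entered as a score). Neither table holds counts per library, so depth is unknown and no model was refitted; precision is that of the SE.

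Members and gene lists were chosen with earlier results of these data known. Members to describe were those with an adjusted p under 0.05, a differential peak, the highest or lowest mean of their class or a value nearest the threshold; the rest are given briefly by role. For the further lists they were the 8 smallest adjusted p and genes with a peak. Not every such gene is reported here. Intervals (95%) are the fold change plus or minus the normal quantile times SE. They are not adjusted for the number of genes, and no gene was tested against another. Peak starts were converted to 1-based positions, and places are relative to RefSeq gene spans (GRCm38.p6). Alternatives were other thresholds, Benjamini-Hochberg adjustment over all genes or over those with means from 100 up, centring on the median of the latter (0.01), weighted means, and stricter peak filters. For the class medians, the other pore components and karyopherins were also added to their classes. The background of genes with means from 1000 up and the 6 motifs were chosen after seeing the data. Adjustment was tested on simulated data. Tables were read with pandas 2.3.3 in Python 3.11.15. Statistics came from scipy 1.17.1 and numpy 2.4.6, and plots from matplotlib 3.10.9.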

Additional observations from a re-analysis of the deposited data

How the results depend on the processing

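The 25 rising members, beside 17.1% of all genes tested, became 19 (12.3% of all) at an adjusted p under 0.01, 26 (20.2%) under 0.1, 23 (12.8%) with adjustment over all genes, 25 (19.9%) over those with means from 100 up and 24 (16.4%) after centring. Requiring an absolute log2 change of at least 0.5 left 3 (3.79%). The 3 falling members, beside 15.5% of all, became 5 (18.5%) under 0.1 and 5 (15.9%) after centring, where Kpna2 and Xpot were added, and 0 (5.75%) with the size requirement. With adjustment over all genes Xpo5 and Tnpo3 no longer passed, and after centring Tnpo3 did not. Ipo11, at 0.00 and not past the threshold, moved to -0.01 after centring, and the calls themselves kept their direction. Under the alternatives run, the pore median lay between 0.18 and 0.21 and the receptor median between 0.13 and 0.14. The median of all members stayed at 0.16. The receptor median minus the pore median was -0.06 in the main setting, a difference that was not tested. It was -0.04 with the other pore components and karyopherins added and -0.07 among genes with means from 100 up. With a fold enrichment of at least 2, members with a negative-change peak were 2 instead of 4, and with positive-change peaks 5 instead of 6. A false discovery rate under 0.01 left 4 and 5, and an absolute change of at least 0.5 left 4 and 4. No paired analysis was possible because the tables hold no values per library, and leaving out a replicate was not run for the same reason.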
